A study of Gallus gallus with 2 samples.

Results

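Glycolysis, the pentose phosphate pathway and the tricarboxylic acid (TCA) cycle were followed through 37 listed genes. Of these, 15 encode enzymes of glycolysis and lactate formation, 6 the pyruvate dehydrogenase complex and its kinases, 11 TCA cycle enzymes and their relatives outside mitochondria, and 5 the pentose phosphate pathway. Members were found by the gene symbol that the array's platform annotation gives to each probe set. A probe set with a member symbol was present for 31 of the 37 genes, and 29 had a probe set above a floor for dim signals, out of 7977 named genes above it. Signals are linear values of MAS5, the array maker's summary of a probe set, and the floor of 98.2 is their 60th percentile. Signals under it have no reliable order and were raised to it. HK2 is counted among the 29 although its brighter signal only reached the floor. PFKM and PDK4 were under the floor on both arrays.

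RNA came from DT40, a chicken B-cell line of bursal origin used widely for gene targeting. In the H2A.Z-1 KO culture the H2A.Z-1 gene was knocked out conditionally, through an H2A.Z-1 transgene that tetracycline switches off. The H2A.Z-2 KO culture had a permanent disruption of the gene for the sister histone variant H2A.Z-2. Both cultures were grown with tetracycline at 2 µg/ml for 72 hours, and 1 array was analysed per genotype with no wild-type array, so each ratio contrasts the knockouts with each other. With 1 array a group no replicate error or test could be had, the number of arrays limits the precision, and a culture or clone difference cannot be told apart from genotype.

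Glycolysis splits glucose into pyruvate in the cytosol and yields ATP and NADH. Pyruvate is either reduced to lactate or enters mitochondria, where pyruvate dehydrogenase turns it into acetyl-CoA for the TCA cycle. The pentose phosphate pathway branches off at glucose phosphate and supplies NADPH and ribose for nucleotides. Proliferating lymphocytes and lymphoma cells run glycolysis at a high rate, and many of its enzymes exist as isoenzymes from separate genes.

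Where signals or counts are given in pairs, H2A.Z-1 KO comes first. Both arrays held 38535 probe sets with a 2% trimmed mean signal of 499.9. The median signals were 52.0 and 64.6, so the arrays were not level among dim probe sets. The targeted genes went the way of the labels: H2AFZ, the gene of H2A.Z-1, had signals of 614.6 in H2A.Z-1 KO versus 27642 in H2A.Z-2 KO, and H2AZ2 had 20911 and 42.1, the last under the floor. Of 18 B-cell markers 14 had probe sets, and 14 of them were above the floor in H2A.Z-1 KO versus 12 in H2A.Z-2 KO. Their summed signal, with the brightest probe set of each gene, was 83476 and 51655. Of these genes PAX5 (127.1 and 203.2), LYN (3521 and 4822), IRF4 (4966 and 5912) and IRF8 (14523 and 15747) were lower in H2A.Z-1 KO. The other B-cell markers with probe sets were higher there. Among markers of other lineages 2 and 4 of 10 T and NK cell genes passed the floor, with sums of 10438 and 8696 that were mostly CD3D. Myeloid (sums of 281.8 and 335.7), erythroid and thrombocyte (209.8 and 476.0) and fibroblast and epithelial (542.0 and 510.7) markers were dim on both arrays. The part of the difference in B-cell markers in the values below was not tested.

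Across the pathways the 2 knockouts had closely similar transcript signals, and IDH1 was the only member past 2-fold. Of the 29 members above the floor, none passed 2-fold toward H2A.Z-1 KO, as 2.87% of all named genes did, and 1 passed it toward H2A.Z-2 KO, as 3.80% did. These shares are near the background. At 1.5-fold, 2 members, OGDH and PFKL, were higher in H2A.Z-1 KO against 7.56% of named genes, and 1 was higher in H2A.Z-2 KO against 11.6%. The remaining 26 members lay between -0.48 and 0.16 on the log2 scale, where a negative ratio means the lower signal in H2A.Z-1 KO.

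Most members lay slightly below 0, as did the median of all named genes. The log2 ratio was below 0 for 24 of 29 members (82.8%), against 57.4% of all named genes. HK2 reached the floor only in H2A.Z-2 KO and DLAT only in H2A.Z-1 KO, so passing on that array alone fixed their signs. The median was -0.15 for the members and -0.06 for all named genes. Against that median of all named genes, 19 of 29 members were lower and 10 higher. Against the median of each setting, 21 of 28 were lower with quantile normalization, 21 of 29 after removal of the brightness trend, 23 of 24 at an 80th-percentile floor and 16 of 31 with no floor. Among genes with a mean signal of at least 1000, 20 of 21 members (95.2%) were below 0, against 52.3% of 2855 named genes. The medians of these bright genes were -0.15 for members and -0.01 for named genes. Of the 13 members measured by several probe sets, 9 had all of them lower in H2A.Z-1 KO, 1 had all of them higher and 3 had both signs. Among named genes with that many probe sets, all were lower in 36.9%. The pooled standard deviation (SD) of log2 ratios within a gene, over its probe sets, was 0.17 for members and 0.36 over all named genes. It measures probe differences within these arrays and not differences between cultures. A mean signal of at least 1000 was reached by 21 of 29 members and by 2855 of 7977 named genes. The comparisons of probe sets within a gene were not matched for brightness.

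**Figure D1:**
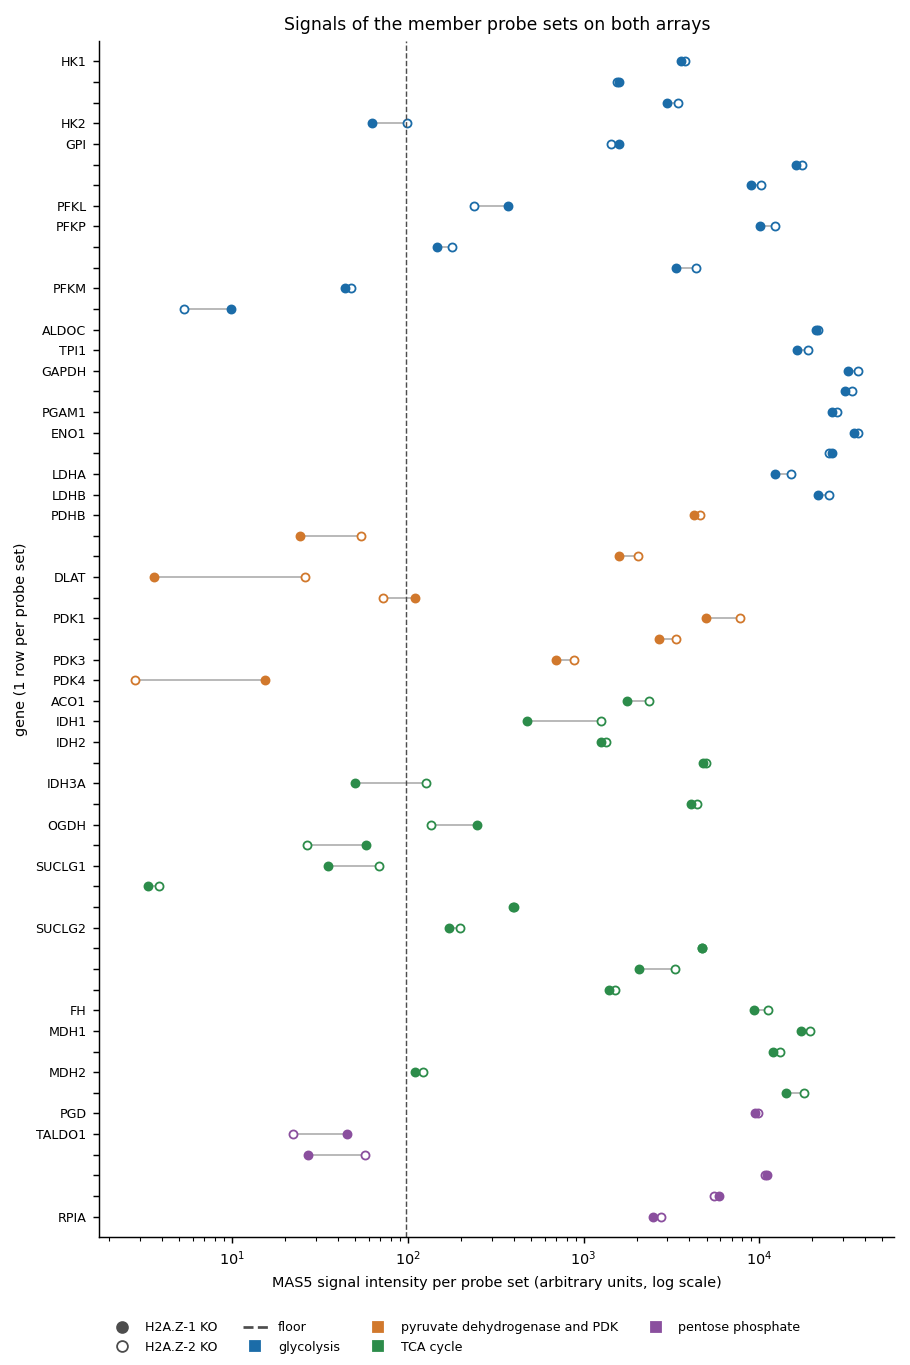
MAS5 signal of each member probe set in H2A.Z-1 KO (filled) versus H2A.Z-2 KO (open), on a logarithmic axis, with rows grouped by gene and coloured by pathway and the floor of 98.2 as a dashed line. Most pairs of points nearly coincide; the widest gap above the floor is that of IDH1, at 476.6 and 1262.

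Transcripts of the first glycolytic enzymes were measured for HK1 and GPI, while HK2 lay at the floor. HK1, a hexokinase that traps glucose in the cell by phosphorylation, had 3 probe sets with signals of 3580, 1591 and 2967 in H2A.Z-1 KO and 3783, 1556 and 3461 in H2A.Z-2 KO. Its log2 ratio was -0.09, and its probe sets ran from -0.22 to 0.03. HK2, the inducible hexokinase, had signals of 62.6 and 98.6, so the first lay under the floor of 98.2 and the second at it. No fold is given for HK2, whose log2 ratio was -0.66 with the floor at the 40th percentile. GPI, the isomerase that makes fructose phosphate, stood at -0.05 over 3 probe sets that ranged from -0.20 to 0.16 and so had both signs.

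The phosphofructokinases, which carry out the committed step of glycolysis, went in opposite directions. The liver-type gene PFKL, on chromosome 9 of the RefSeq assembly GRCg7b, had signals of 372.8 in H2A.Z-1 KO and 239.7 in H2A.Z-2 KO. It was thus 1.56-fold higher in H2A.Z-1 KO, a log2 ratio of 0.64 from a single probe set. The identifier of that probe set starts like that of a PFKM probe set, and which transcript it reads was not tested. The platelet-type gene PFKP, on chromosome 2, had 3 probe sets with signals of 10040, 3342 and 146.5 against 12230, 4358 and 179.0. All 3 were lower in H2A.Z-1 KO, with ratios from -0.38 to -0.28 and a mean of -0.32. The ratios of PFKL and PFKP differed by 0.96. The muscle-type gene PFKM, with signals from 5.34 to 47.7, was under the floor on both arrays.

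The enzymes of the later steps were bright and nearly level. ALDOC, an aldolase that splits the fructose bisphosphate, had signals of 21014 and 21584, a log2 ratio of -0.04. TPI1, the triose phosphate isomerase, had 16258 and 18897, a ratio of -0.22. GAPDH, whose reaction yields NADH, had 2 probe sets at 30472 and 32061 against 33464 and 36166, a mean ratio of -0.15. The 4 control probe sets for GAPDH on the same array, left out of this mean, gave ratios from -0.18 to -0.08. All 6 probe sets of GAPDH were therefore lower in H2A.Z-1 KO, with a mean ratio of -0.14 and an SD of 0.04 between them. This SD measures probe differences and not differences between cultures.

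PGAM1, the phosphoglycerate mutase, had signals of 25740 and 27681, a ratio of -0.10. ENO1, the enolase that forms phosphoenolpyruvate, stood at -0.01 with 1 probe set on each side of 0. The lactate dehydrogenases, which interconvert pyruvate and lactate, were both lower in H2A.Z-1 KO. LDHA, the form that favours lactate formation, had 12248 and 15087, a ratio of -0.30. LDHB, the form that favours lactate use, had 21463 and 24780, a ratio of -0.21. Their ratios differed by 0.09. Over all 12 glycolytic genes above the floor, 11 were below 0, against 57.4% of all named genes. PFKL was the exception, and the median was -0.10, against -0.06 for all named genes. HK2, ENO1, ALDOC and GPI lay between that median of all named genes and 0. HK2 reached the floor only in H2A.Z-2 KO, so passing on that array alone fixed its sign here. ENO1 turned to just above 0 under median centring, quantile normalization and removal of the brightness trend, ALDOC under the second of these and HK2 under the third. With only probe sets specific to 1 transcript, HK1 (0.03) and GPI (0.16) turned above 0.

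For 3 members without a probe set of their own symbol, RefSeq lists the symbol as a synonym of a named gene. This match was added after the data were seen. PGK1 is a synonym of PGK2, which had signals of 21790 and 21973, a ratio of -0.01. PKM is a synonym of PKLR, a pyruvate kinase, at 19134 and 20217, a ratio of -0.08. PDHA1 is a synonym of PDHA2, with 3 probe sets above the floor at -0.88, -0.23 and 0.03, of which the brightest had 11340 and 11096. The probe sets of PDHA2 thus disagreed by more than those of any member. CS, TKT and RPE, also without a probe set of their own symbol, were not analysed here.

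**Figure D2:**
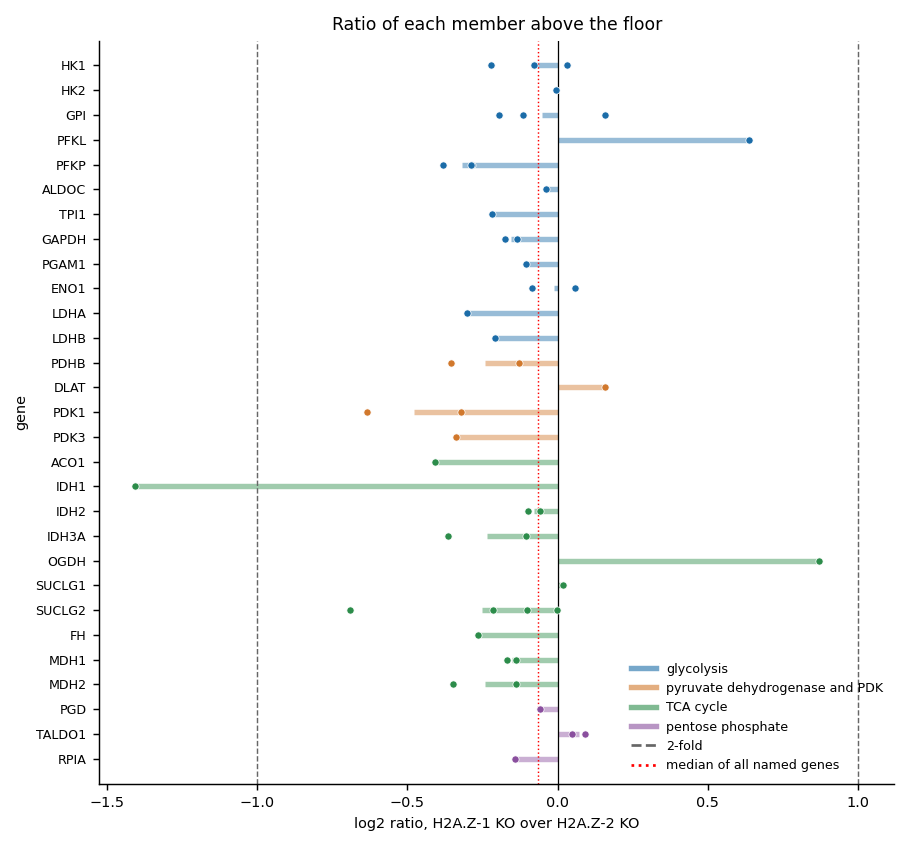
Log2 ratio of H2A.Z-1 KO over H2A.Z-2 KO for the 29 members above the floor. Bars end at the gene's mean, points are single probe sets, dashed lines mark 2-fold and the dotted line the median of all named genes (-0.06); the bar of IDH1 alone passes a dashed line, at -1.40, and those of OGDH (0.87) and PFKL (0.64) are the longest to the right.

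At the entry to the TCA cycle, both measured kinases that switch off pyruvate dehydrogenase were lower in H2A.Z-1 KO. PDK1, a kinase induced by hypoxia in mammalian cells, had probe sets with signals of 4994 and 2697 against 7748 and 3371. The ratios of its probe sets were -0.63 and -0.32, and the mean of -0.48, or 1.39-fold, was the second lowest of the members. PDK3 had signals of 699.2 and 883.2, a ratio of -0.34. PDK4, known for its induction by fasting in mammals, had 15.4 and 2.83, both under the floor.

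Subunits of the complex itself differed less clearly. PDHB, a subunit of its decarboxylase component, had 2 probe sets above the floor with signals of 4220 and 1598 against 4612 and 2043, a mean ratio of -0.24. DLAT, the acetyltransferase core of the complex, had 1 of 2 probe sets above the floor, with 109.6 in H2A.Z-1 KO and 72.2, under the floor, on the other. Its difference of at least 1.12-fold lay next to the floor and does not give a firm direction. In this group of 4 genes above the floor 3 were below 0, against 57.4% of all named genes, and the median was -0.29.

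The isocitrate dehydrogenases held the largest difference. IDH1, the NADP-dependent enzyme of cytosol and peroxisomes, which makes NADPH and alpha-ketoglutarate, lies on chromosome 7 of GRCg7b. Its single probe set gave 476.6 in H2A.Z-1 KO and 1262 in H2A.Z-2 KO. It was thus 2.65-fold higher in H2A.Z-2 KO, a log2 ratio of -1.40, and 144 of the 7977 named genes (1.81%) had a lower ratio. IDH2, the mitochondrial NADP-dependent form, had 2 probe sets at 1258 and 4765 against 1346 and 4961, a mean ratio of -0.08. IDH1 and IDH2 therefore differed by 1.33 in their log2 ratios, the widest gap among the isoenzyme pairs compared. IDH3A, a catalytic subunit of the NAD-dependent enzyme of the cycle, had 4090 and 4403 on its brighter probe set. The dimmer one of IDH3A, with 49.97 under the floor and 126.5, contributed to its mean ratio of -0.24.

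Next in the cycle, OGDH showed the largest difference toward the H2A.Z-1 KO array. OGDH, on chromosome 22, is the decarboxylating component of the alpha-ketoglutarate dehydrogenase complex, which consumes alpha-ketoglutarate. Its probe set above the floor had signals of 247.5 in H2A.Z-1 KO and 135.5 in H2A.Z-2 KO, a 1.83-fold difference and a ratio of 0.87. Of all named genes 3.61% had a higher ratio. The other probe set of OGDH was under the floor on both arrays, with signals of 57.8 and 26.8. The measured one can also match more than 1 transcript, and the ratio passed 2-fold under quantile normalization (1.02) and after removal of the brightness trend (1.03).

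The remaining TCA members stood within 1.5-fold. ACO1, the cytosolic aconitase that doubles as an iron-regulatory RNA-binding protein, had signals of 1776 and 2357, a ratio of -0.41 and the third lowest of the members. SUCLG1, the shared subunit of succinyl-CoA ligase, had 402.2 and 396.9 on its 1 probe set above the floor, a ratio of 0.02. SUCLG2, its GTP-specific partner, averaged -0.25 over 4 probe sets, which ran from -0.69 to -0.0037. The SD among the SUCLG2 probe sets, 0.30, exceeded the mean difference itself.

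FH, the fumarase, had signals of 9352 and 11237, a ratio of -0.26. The malate dehydrogenases of the cytosol (MDH1) and mitochondria (MDH2) stood at -0.15 and -0.24. The 2 probe sets of MDH1 had 17321 and 11932 against 19481 and 13120, and the brighter one of MDH2 had 14168 against 18024. Both transcripts were thus lower in H2A.Z-1 KO, with a gap of 0.09 between the MDH1 and MDH2 ratios. Of the 10 TCA genes above the floor 8 were below 0, against 57.4% of all named genes, and the median was -0.24.

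The pentose phosphate genes lay within 1.5-fold. PGD, which makes NADPH in the oxidative branch, had signals of 9455 and 9851, a ratio of -0.06. TALDO1, the transaldolase of the non-oxidative branch, had 11067 and 5895 against 10706 and 5531 on its probe sets above the floor, a mean ratio of 0.07. RPIA, the isomerase that makes ribose phosphate, had 2497 and 2758, a ratio of -0.14. The median of these 3 was -0.06, equal to that of all named genes. With only probe sets specific to 1 transcript TALDO1 alone remained, at 0.048.

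**Figure D3:**
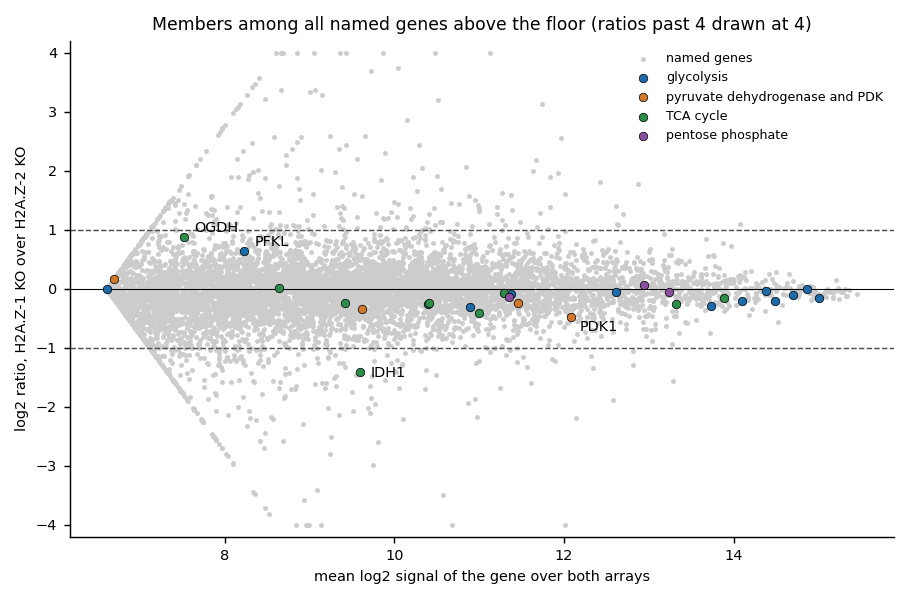
Log2 ratio against mean log2 signal for the named genes above the floor (grey) and the 29 members (coloured by pathway), with dashed lines at 2-fold. Most members lie close to 0, and IDH1 (-1.40), OGDH (0.87) and PFKL (0.64) stand furthest from it.

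Other genes of the same pathways were taken from lists written beside the members. Of 11 further genes of glycolysis and gluconeogenesis above the floor none passed 2-fold, and the median was -0.08. These include PKLR, matched above to the member PKM. MINPP1 and PCK2, named after their values were seen, reached the floor only in H2A.Z-2 KO, which fixed their sign. The median is the value of MINPP1. The second enolase gene ENO2 had signals of 138.3 and 263.8, 1.91-fold higher in H2A.Z-2 KO. PFKFB3, whose product makes a regulatory fructose bisphosphate that activates phosphofructokinase, had 113.2 and 176.0, a ratio of -0.64. On the other side TIGAR, a fructose bisphosphatase induced by p53 in mammals, stood at 0.27 and BPGM, the bisphosphoglycerate mutase, at 0.22.

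Glucose uptake and lactate export genes went both ways. Of 6 transport genes above the floor none passed 2-fold, and the median was -0.22. The glucose transporter gene SLC2A1 had signals of 1460 and 1055, a ratio of 0.47, and SLC2A6, another transporter of the family, stood at 0.34. BSG, the chaperone of the lactate transporters, had a ratio of -0.54 with 3 probe sets from -0.85 to -0.32, all lower in H2A.Z-1 KO. MPC2, a subunit of the mitochondrial pyruvate carrier, stood at -0.29.

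The further genes of the pyruvate dehydrogenase group were mostly lower in H2A.Z-1 KO. Of 7 above the floor 6 were below 0, against 57.4% of all named genes. None passed 2-fold, and the median was -0.35. LIAS, which makes the lipoic acid that the complex carries, had a ratio of -0.55 over 2 probe sets at -0.67 and -0.43. LIPT1, which transfers lipoic acid, had signals of 1359 and 1863, a ratio of -0.46. PDP2, a phosphatase that reactivates the complex, was the exception at 0.04.

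Of 12 further TCA and anaplerotic genes above the floor 11 were below 0, against 57.4% of all named genes. None passed 2-fold, and the median was -0.21. ME1 and OGDHL, named after their values were seen, reached the floor only in H2A.Z-2 KO. Passing the floor on that array alone fixed their sign. The count below 0 includes both, so their part in it was fixed in advance. D2HGDH, which oxidises D-hydroxyglutarate to alpha-ketoglutarate, had a ratio of -0.72, with probe sets at -0.99 and -0.44. SDHA, the flavoprotein of succinate dehydrogenase, had signals of 15872 and 21643, a ratio of -0.45. Its partner SDHD, a membrane anchor, had 14353 and 14108, a ratio of 0.02. The succinate dehydrogenase subunits with a value thus did not share 1 ratio.

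Of 6 further pentose phosphate genes above the floor 5 were below 0, against 57.4% of all named genes. None passed 2-fold, and the median was -0.21. H6PD, named after its values were seen, and RBKS reached the floor only in H2A.Z-2 KO. Passing the floor on that array alone fixed their sign. The count below 0 includes both, so their part in it was fixed in advance. RBKS, the ribokinase, had a signal under the floor in H2A.Z-1 KO and 164.8 in H2A.Z-2 KO, a difference of at least 1.68-fold. DERA, which cleaves deoxyribose phosphate, stood at -0.41. PRPS2, which uses ribose phosphate for nucleotide synthesis, had a ratio of 0.72 with 3 probe sets from 0.47 to 1.14, all higher in H2A.Z-1 KO. All of these lists describe 2 arrays, and their counts past 2-fold, 0 in each direction, stand against 2.87% and 3.80% of named genes.

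**Figure D4:**
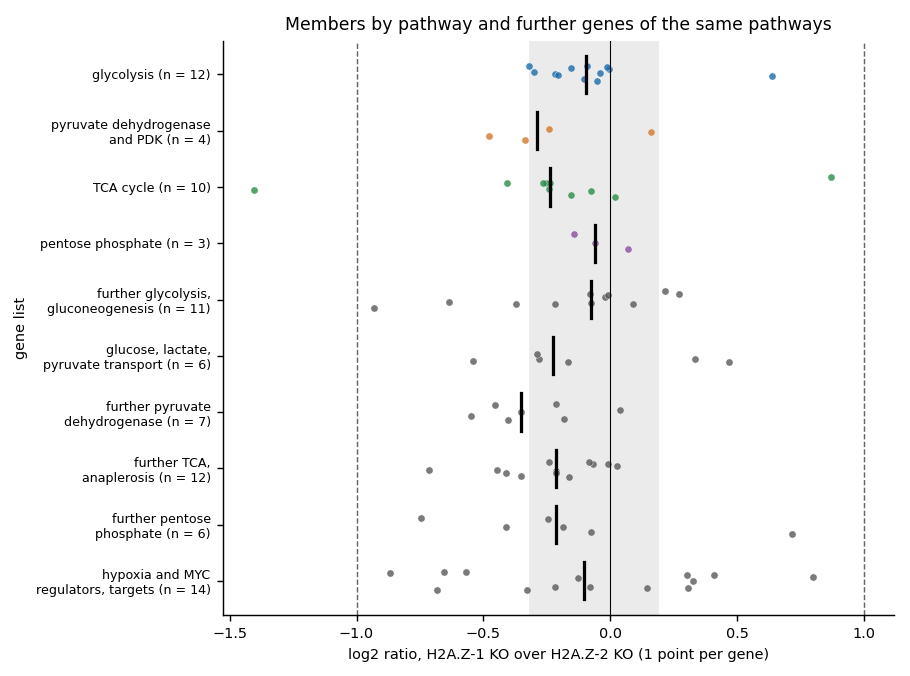
Log2 ratio of each gene above the floor, by pathway for the members (coloured) and for the further lists (grey); vertical bars are medians, the shaded band is the middle part (quartiles) of all named genes, from -0.32 to 0.19, and dashed lines mark 2-fold. The medians of the lists all lie below 0, and IDH1 alone lies past 2-fold.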

How the data were processed

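Biotin-labelled RNA of 1 H2A.Z-1 KO culture, and of 1 H2A.Z-2 KO culture, was hybridised to an Affymetrix chicken array. The deposited values are linear MAS5 signal intensities per probe set, per the submitters' processing notes; the sources used here do not give its version, scaling target or detection calls. From their equal trimmed means both arrays were taken as scaled to 1 level, so a global shift of RNA content would not show.

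The 96 control probe sets were left out. Signals under 98.2, the 60th percentile over both arrays of the 38439 remaining probe sets, were raised to that floor. A fold against a signal under the floor is written "at least". A gene's log2 ratio (H2A.Z-1 KO over H2A.Z-2 KO) averages those of its probe sets that reached the floor on either array. Of the 47 member probe sets above the floor 25 carry a suffix for possible matches to several transcripts, 9 members have no other kind, and 16 rest on 1 probe set. The call was 2-fold. Symbols came from the platform annotation, and chromosomes from RefSeq (GRCg7b). No promoter or protein sequences were analysed here.

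All members were accounted for. Further genes named were, from each further list, members past 2-fold and the 2 furthest from 0 in each direction, besides genes for which the text says that they were picked later. Members and lists were chosen with earlier results of these data known. The steps were tested on simulated data. Alternatives changed scaling, floor, threshold, probe sets, names and the list summary. Python 3.11.15, pandas 2.3.3 and statsmodels 0.14.6 were used.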

Additional observations from a re-analysis of the deposited data

How the results depend on the processing

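IDH1 passed 2-fold toward H2A.Z-2 KO under each of the 10 planned changes of scaling, floor, probe sets or names. Its log2 ratios ran from -1.41 to -1.15. IDH1 has a single probe set, above the floor on both arrays. The changes of probe sets and names and the 40th-percentile floor left its value as it was, so they were no check of it. At a 3-fold threshold, for which no share of named genes is given here, the count of members higher in H2A.Z-2 KO was 0. The count higher in H2A.Z-1 KO, 0 in the report, was 1 after quantile normalization, against 3.13% of named genes. It was 1 after removal of the brightness trend, against 3.27%, and 2 at 1.5-fold, against 7.56%. With no floor it was 1, against 6.96%, while OGDH stood at 0.97. That 1 was PDK4, whose signals of 15.4 and 2.83 were both under the floor used elsewhere. The median of all members ran from -0.21 with no floor to -0.11 when each gene was read from its brightest probe set, and was -0.15 with synonyms included (32 genes). It lay under the median of all named genes each time, by 0.17 at an 80th-percentile floor and by 0.05 with no floor. The median of the pyruvate dehydrogenase and PDK members moved from -0.29 to -0.48 with no floor, where PDK4 and the dim probe sets of DLAT and PDHB enter. The pentose phosphate median turned from -0.06 to 0.048 when probe sets shared by several transcripts were dropped, which leaves TALDO1 alone. Members near 0 or near the floor changed sign under some settings: HK1, HK2, GPI, ALDOC, ENO1, DLAT, SUCLG1 and TALDO1. Larger moves were seen in DLAT, which ran from -0.98 with no floor to 0.60 at a 40th-percentile floor. HK2, IDH3A and SUCLG1 reached -0.66, -0.72 and -0.43 with that 40th-percentile floor. No paired analysis was possible because each genotype has 1 array. Dim genes have only a bound, and saturation of the brightest probe sets was not tested.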

Other observations

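Genes around the control of glycolysis by hypoxia and MYC were described with the same ratios. The hypoxia-inducible factor activates glycolytic genes when oxygen is low, and MYC drives many of the same enzymes in dividing cells. Of 14 genes of this list above the floor none passed 2-fold, 8 (57.1%) were below 0 and 6 above, and the median was -0.10. Over all named genes 2.87% and 3.80% passed 2-fold toward H2A.Z-1 KO and toward H2A.Z-2 KO, 57.4% were below 0 and the median was -0.06. The next 4 genes were chosen after their values were seen. HIF1A, the oxygen-regulated subunit, had a log2 ratio of -0.33, with probe sets at -0.62 and -0.03, and its partner ARNT stood at -0.22. EGLN1, the oxygen sensor that marks HIF1A for decay, had signals of 1837 and 2889, a ratio of -0.65. The MYC probe set had 19322 and 28614, a ratio of -0.57. The other regulators above the floor, MLXIP, VHL and HIF1AN, stood at 0.30, -0.08 and -0.13, and were also named after their values were seen.

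Hypoxia targets outside glycolysis did not share a direction. DDIT4 reached the floor only in H2A.Z-1 KO and CA9 only in H2A.Z-2 KO, so passing on that array alone fixed their signs. P4HA1, a collagen prolyl hydroxylase subunit, had a ratio of 0.80 with probe sets at 0.33 and 1.27. BNIP3, a mitophagy receptor, had signals of 527.5 and 397.5 as means over 2 probe sets, a ratio of 0.41. KDM3A (0.33), BNIP3L (0.31) and DDIT4 (0.15, next to the floor), named after their values were seen, were higher in H2A.Z-1 KO too. CA9 and MXI1 were the lower ones. CA9, a carbonic anhydrase, had a signal under the floor in H2A.Z-1 KO and 178.9 in H2A.Z-2 KO, a difference of at least 1.82-fold. MXI1, a MAX-binding antagonist of MYC, stood at -0.68 over 3 probe sets from -0.88 to -0.41. The spiked-in controls, with 42 probe sets past the floor, which report hybridisation and labelling and no cell transcript, had a mean ratio of 0.07 with an SD of 0.15 and ran from -0.31 to 0.45.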
